A study of Mus musculus with 11 samples.

Results

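Dhrs3 and 7 other genes of retinoid metabolism and retinoid reception were followed in splenic B cells of 2 mouse strains, with and without stimulation of the B cell receptor. The genes were chosen by symbol. They were read through every probe set that the platform annotation assigns to exactly one of the symbols Dhrs3, Rdh10, Rdh11, Stra6, Rara, Rarg, Rxra and Rxrb. This gave 13 probe sets of 45101, or 8 genes of 18193 tested. Dhrs3 was picked because it differed between the strains on these same arrays, and the other genes were picked for their function around it. The strain differences of the 8 genes are therefore given as descriptions with no test, and tests are given for the response to stimulation.

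B cells came from NOD (NOD/ShiLtJ) mice, which develop autoimmune diabetes, and from NR4 (NOD.NOR-Chr4/DvsJ) mice, a congenic strain that carries NOR-derived chromosome 4 sequence on the NOD background. All mice were females aged 6 weeks. B cells were enriched by magnetic depletion of other cells from lots of 7 to 8 pooled spleens, so a replicate is a pool of animals. Each strain had 3 lots, and each lot was divided between the cultures. They were cultured for 2 h with goat F(ab')2 fragments directed at mouse IgM (anti-IgM, 10 µg/ml), which cross-link the receptor, or in medium alone (unstimulated). The groups were NOD anti-IgM (2 arrays), NOD unstimulated (3 arrays), NR4 anti-IgM (3 arrays) and NR4 unstimulated (3 arrays).

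Retinol, the circulating form of vitamin A, enters cells partly through the receptor STRA6. It is oxidised reversibly to retinaldehyde by dehydrogenases such as RDH10, and then irreversibly to retinoic acid. Reductases, DHRS3 among them, return retinaldehyde to retinol and so lower the supply of retinoic acid. Retinoic acid binds the receptors RARA, RARB and RARG, which pair with the retinoid X receptors and act on target genes. In the immune system retinoic acid is known for gut homing of lymphocytes and for class switching to IgA.

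Values below are centred signals. Each probe set was set to a median of 0 over the 11 arrays in the deposited table, so a value of 0 is the middle array and not absence of RNA. The scale is taken as log2, which the file does not state. Absolute levels and detection are not known for any gene, and levels of different genes cannot be compared. For the same reason the presence of B cell markers could not be checked, only their change. The mean of 7 B cell marker genes lay between -0.34 and -0.10 in NOD anti-IgM and between 0.09 and 0.14 in NOD unstimulated arrays. It lay between -0.41 and -0.20 in NR4 anti-IgM and between -0.06 and 0.34 in NR4 unstimulated arrays. None of the 7 passed the test between the strains, where 0.121% of all genes did (called here means a limma p adjusted by Benjamini-Hochberg over all genes of at most 0.05). Between the cultures 4 of the 7 fell after anti-IgM (Cd22, Cd79b, Fcrla and Ms4a1), where 0.841% of all genes were called lower, and the part of this in the responses below was not tested. In bulk RNA, fewer cells of a type and less RNA per cell cannot be told apart. One array stood apart in RNA quality. For actin and Gapdh, the 3' control probe sets exceeded the 5' ones by 0.96 log2 units on average in NR4 anti-IgM replicate 1, against -0.079 to 0.29 on the other 10 arrays.

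Dhrs3 had the largest strain difference of the list. Its centred signal was 3.17 and 3.17 in NOD anti-IgM arrays, against 0.00, -0.07 and -0.59 in NR4 anti-IgM arrays. It was 2.35, 1.99 and 2.31 in NOD unstimulated arrays, against -0.20, -0.80 and -2.16 in NR4 unstimulated arrays. Every NOD array lay above every NR4 array in both cultures, and the lowest NOD array was above the highest NR4 array of either culture. NOD exceeded NR4 by 3.39 log2 units (SE 0.44) in anti-IgM cultures and by 3.27 (SE 0.40) in unstimulated cultures. After quantile normalization of the deposited values the difference in anti-IgM cultures was 2.44. Averaged over both cultures the difference was 3.33 (SE 0.30), a 10.0-fold higher signal in NOD. Among all 18193 genes this was the 3rd largest absolute strain difference. Of the 8 genes, 1 had NOD arrays above NR4 arrays in both cultures, where 1.01% of all genes did. Since Dhrs3 was picked by this contrast, that count carries no evidence.

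**Figure D1:**
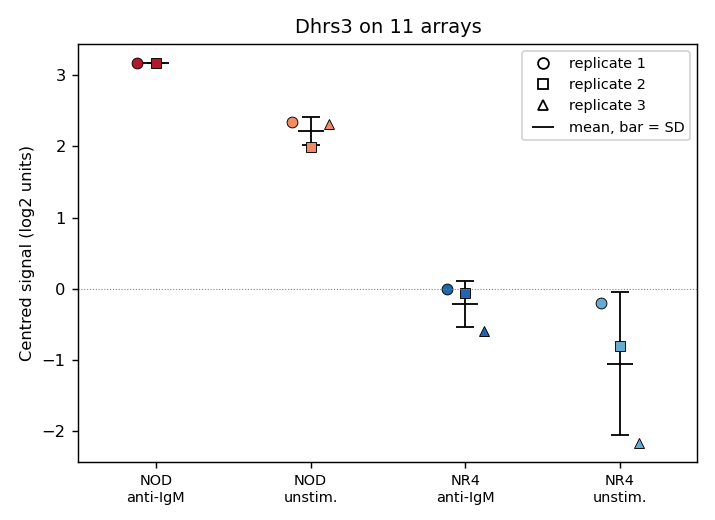
Centred signal of Dhrs3 (log2 units, vertical axis) on each of the 11 arrays, by group, with the replicate number as the symbol and the mean with SD as lines. NOD arrays lie between 1.99 and 3.17 and NR4 arrays between -2.16 and 0.00.

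The NOD arrays were closer together than the NR4 arrays. The mean was 3.17 ± 0.00063 in NOD anti-IgM (SD, n = 2) and 2.21 ± 0.19 in NOD unstimulated cells (SD, n = 3). It was -0.22 ± 0.32 in NR4 anti-IgM (SD, n = 3) and -1.05 ± 1.01 in NR4 unstimulated cells (SD, n = 3). The residual SD of Dhrs3 within groups was 0.574, larger than that of 99.1% of genes, and the median over all genes was 0.179. NR4 unstimulated replicate 3 was the lowest array. Without it the unstimulated strain difference was 2.71 and the averaged one 3.05. The mean levels of natural killer cell, monocyte and macrophage, and erythroid marker lists stood in the same order as Dhrs3 over the NR4 arrays of each culture. Those of the B cell, T cell, neutrophil, dendritic cell, stromal and endothelial, and plasma cell lists did not. Of these, the T cell mean stood in that order in NR4 unstimulated replicates 1, 2 and 3 only (0.13, 0.065 and -0.35). The stromal and endothelial mean did so in NR4 anti-IgM replicates only (0.24, 0.084 and -0.083). In NR4 unstimulated replicates 1, 2 and 3, the neutrophil mean was -0.37, 0.08 and 0.34, and the B cell mean 0.14, -0.06 and 0.34. The labels do not name the antibodies of the depletion. The mean of 7 natural killer cell genes was 0.16 and 0.084 in NOD anti-IgM and 0.20, 0.12 and -0.0017 in NOD unstimulated replicates. It was 0.037, -0.22 and -0.37 in NR4 anti-IgM replicates 1, 2 and 3, and 0.14, -0.11 and -0.78 in NR4 unstimulated replicates 1, 2 and 3. The mean of 6 monocyte and macrophage genes was 0.16, 0.013 and -0.19 in NR4 anti-IgM replicates 1, 2 and 3, and -0.016, -0.15 and -0.21 in NR4 unstimulated replicates. That of 3 erythroid genes was 0.45, 0.073 and -0.078 in NR4 anti-IgM and 0.058, -0.084 and -0.10 in NR4 unstimulated replicates. In NOD the monocyte and macrophage mean lay between -0.0083 and 0.22 in anti-IgM and between -0.068 and 0.12 in unstimulated arrays. The erythroid mean in NOD lay between -0.096 and 0.034 in anti-IgM and between -0.011 and 0.061 in unstimulated arrays. No gene of the natural killer cell, monocyte and macrophage, or erythroid lists was called between the strains by limma. The part of any list in the spread of Dhrs3 was not tested.

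Dhrs3 was measured by 1 probe set, 1448390_a_at. A difference in RNA level and a sequence difference under its probes cannot be told apart here, since NR4 carries NOR sequence on chromosome 4, the chromosome of Dhrs3. The sequence before the most upstream of 3 annotated starts is shown because the strain difference concerns this gene. It is RefSeq sequence of the C57BL/6J reference (GRCm38.p6, chr4:144892577-144892826, + strand) and not that of NOD or NR4. Capitals mark CG dinucleotides.

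Dhrs3 upstream: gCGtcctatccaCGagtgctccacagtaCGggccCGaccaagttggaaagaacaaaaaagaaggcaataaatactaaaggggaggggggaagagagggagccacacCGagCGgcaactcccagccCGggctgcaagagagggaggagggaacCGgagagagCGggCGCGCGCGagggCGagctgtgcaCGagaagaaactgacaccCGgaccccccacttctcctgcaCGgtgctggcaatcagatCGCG

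These 250 bases hold 19 CG dinucleotides and 61.6% G and C. The median over 32851 annotated start windows was 6 CG dinucleotides and 52.4% G and C, and 80.3% of windows had fewer CG dinucleotides. The following motifs were searched on both strands. They were the half-site AGGTCA of retinoid receptors, a direct repeat of that half-site with 5 bases between, the AP-1 motif TGANTCA, the EGR motif GCGTGGGCG, the E-box CACGTG and the GC box GGGCGG. The direct repeat contains the half-site. None of these motifs occurred in the 250 bases. Of all windows, which hold 300 bases, 16.3% held the half-site, 0.0091% the direct repeat, 7.81% the AP-1 motif, 0.612% the EGR motif, 7.15% the E-box and 35.7% the GC box. Start windows were matched for 7 of the 8 genes, all but Rdh10. The half-site occurred in 4 of their 19 windows, 1 each for Rdh11, Rara, Rarg and Rxra, which contain it as letters only.

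After stimulation Dhrs3 was higher on average in both strains, without passing the test. In NOD, both anti-IgM arrays (3.17 and 3.17) lay above all 3 unstimulated arrays (1.99 to 2.35). In NR4, the anti-IgM arrays (-0.59 to 0.00) overlapped the unstimulated arrays (-2.16 to -0.20). The response was 0.96 log2 units (SE 0.44, limma adjusted p = 0.99) in NOD and 0.84 (SE 0.40, limma adjusted p = 0.55) in NR4. After quantile normalization of the deposited values it was 0.17 in NOD and 1.32 in NR4. Averaged over strains it was 0.90 (SE 0.30, 95% interval 0.24 to 1.56, limma adjusted p = 0.23, unadjusted p = 0.013). Without NR4 unstimulated replicate 3 the average was 0.62 and the NR4 response 0.28. The responses of the strains differed by 0.12 (NOD minus NR4, SE 0.59, 95% interval -1.20 to 1.44, limma adjusted p = 1.00). A difference of about 1 log2 unit either way lay inside this unadjusted interval and was not detectable with these arrays. The adjusted test requires a larger one still. After quantile normalization the difference between the responses was -1.15 and still did not pass.

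Over the 11 arrays the genes most correlated with Dhrs3 were Padi2 (r = 0.97), Zfp979 (r = 0.93), Stat4 (r = 0.92), Icam2 (r = 0.91) and Dtwd2 (r = 0.90). The lowest values belonged to Cep85 (r = -0.95), Znf41-ps (r = -0.94) and Gm13238 (r = -0.92). Dhrs3 falls into 2 clusters by strain, and these genes were picked by their r, so the values are descriptions only. NOD minus NR4 was 1.83 for Padi2, 5.24 for Zfp979, 0.68 for Stat4, 3.83 for Icam2 and 0.49 for Dtwd2. The other 7 retinoid genes had r between 0.018 for Stra6 and 0.51 for Rxra.

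The genes next to Dhrs3 on chromosome 4 were read to see which of them differed between the strains. The 10 measured genes on each side were taken in the order of GRCm38.p6. Of these 20 genes, 3 passed the test between the strains by limma (1 higher and 2 lower in NOD), where 0.121% of all genes did (0.055% higher and 0.066% lower). These calls are known from earlier work on the same arrays and are no independent support. All 3 lie on one side of Dhrs3. Whether the genes of the other side are detected in these cells is not known, so no boundary can be read from this. The called genes are Znf41-ps and Gm13238, both annotated as transcribed pseudogenes, and the zinc finger gene Zfp982. Znf41-ps was at -1.52 (SE 0.12, limma adjusted p = 0.00033), Gm13238 at -2.48 (SE 0.18, limma adjusted p = 0.00019) and Zfp982 at 1.29 (SE 0.18, limma adjusted p = 0.029). Zfp982 lost its call without any of 9 of the 11 arrays (adjusted p up to 0.15). It also lost it with lots within strain as a random block (1.25, limma adjusted p = 0.17). For that block, same-numbered arrays of a strain were assumed to share a lot. By its lowest-numbered probe set alone its difference was 2.47 (limma adjusted p = 0.012). Zinc finger genes of this cluster are similar in sequence, and probe sets may not tell copies apart. The nearest measured genes did not pass. Vps13d, on one side, was at -0.20 (SE 0.12, limma adjusted p = 1.00). Tnfrsf1b, the TNF receptor 2 gene on the other side, was at 0.42 (SE 0.13, limma adjusted p = 0.78). The median absolute difference of the 20 genes was 0.133, against 0.0707 for all genes.

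**Figure D2:**
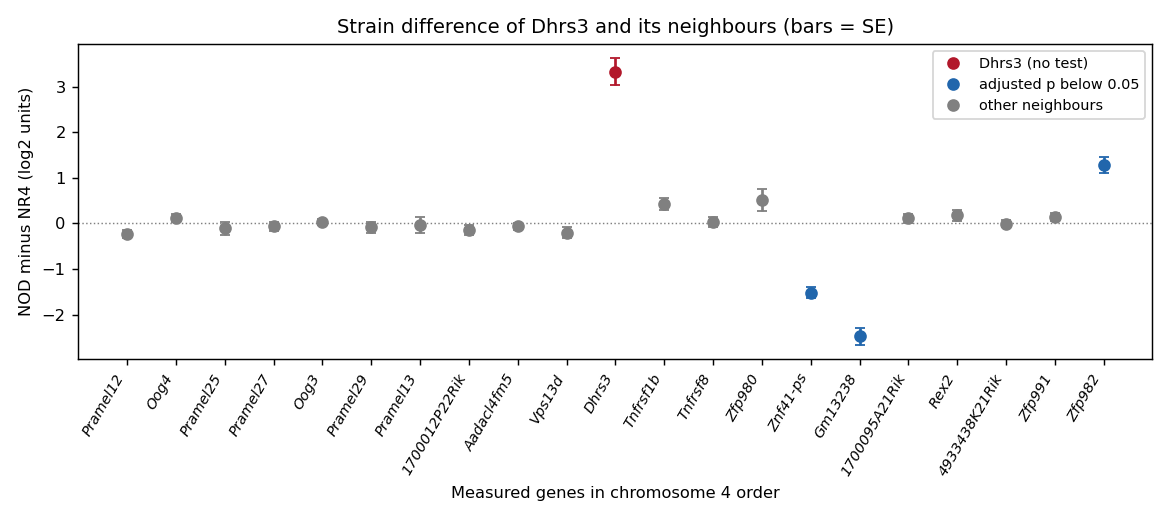
NOD minus NR4 difference (log2 units, averaged over cultures, bars show SE) of Dhrs3 and of the 10 measured genes on each side in chromosome order. Dhrs3 stands at 3.33, the 3 called neighbours (Znf41-ps, Gm13238 and Zfp982) are in blue, and the remaining 17 lie between -0.23 and 0.51.

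Rdh10, the retinol dehydrogenase that feeds retinoic acid synthesis, was read by 2 probe sets that did not move alike. Its centred signal was -0.04 and -0.14 in NOD anti-IgM and 0.23, 0.07 and -0.02 in NOD unstimulated arrays. It was -0.13, -0.25 and -0.16 in NR4 anti-IgM and 0.13, -0.13 and 0.09 in NR4 unstimulated arrays. Stimulated arrays lay below unstimulated ones in both strains, but in NR4 by a margin of -0.1348 against -0.1343, and the strains overlapped in each culture. NOD minus NR4 was 0.077 (SE 0.078). The averaged response was -0.20 (SE 0.078, 95% interval -0.37 to -0.03, limma adjusted p = 0.33). The response was -0.40 (SE 0.12) by 1460632_at, and -0.0027 (SE 0.11) by 1426968_a_at. The strain difference was 0.22 (SE 0.12) by 1460632_at and -0.064 (SE 0.11) by 1426968_a_at. By 1460632_at both NOD anti-IgM arrays lay above all NR4 anti-IgM arrays (difference 0.36, SE 0.18), and by 1426968_a_at they overlapped. The share of all probe sets separated in this way was not counted, so the separation is a description only.

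Rdh11 encodes an enzyme of the same family that acts in cells mainly as a retinaldehyde reductase. Its centred signal was 0.20 and -0.09 in NOD anti-IgM and 0.34, -0.03 and 0.25 in NOD unstimulated arrays. It was -0.09, -0.56 and -0.10 in NR4 anti-IgM and 0.21, -0.08 and 0.04 in NR4 unstimulated arrays. NR4 anti-IgM replicate 2 was the lowest array, and the strains overlapped in each culture by the gene value. By 1418760_at both NOD anti-IgM arrays lay above all NR4 anti-IgM arrays (difference 0.39, SE 0.19), and by 1449209_a_at they overlapped. Here too the share of all probe sets so separated was not counted, and the separation is a description only. NOD minus NR4 was 0.22 (SE 0.12). With the replicate number as a block in the fit, it was 0.20 (SE 0.074) by 1418760_at and 0.27 (SE 0.081) by 1449209_a_at. The averaged response was -0.22 (SE 0.12, limma adjusted p = 0.58), and both probe sets were negative, at -0.25 (1418760_at) and -0.19 (1449209_a_at).

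Stra6, the retinol uptake receptor gene, was read by 1 probe set. It was at -0.03 and -0.26 in NOD anti-IgM, and at 0.48, 0.00 and 0.04 in NOD unstimulated arrays. It ranged from -0.29 to 0.26 in NR4 anti-IgM and from 0.00 to 0.07 in NR4 unstimulated arrays. NOD unstimulated replicate 1 was the highest array. The strain difference was 0.0099 (SE 0.12) and the averaged response -0.18 (SE 0.12, 95% interval -0.45 to 0.09, limma adjusted p = 0.72).

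**Figure D3:**
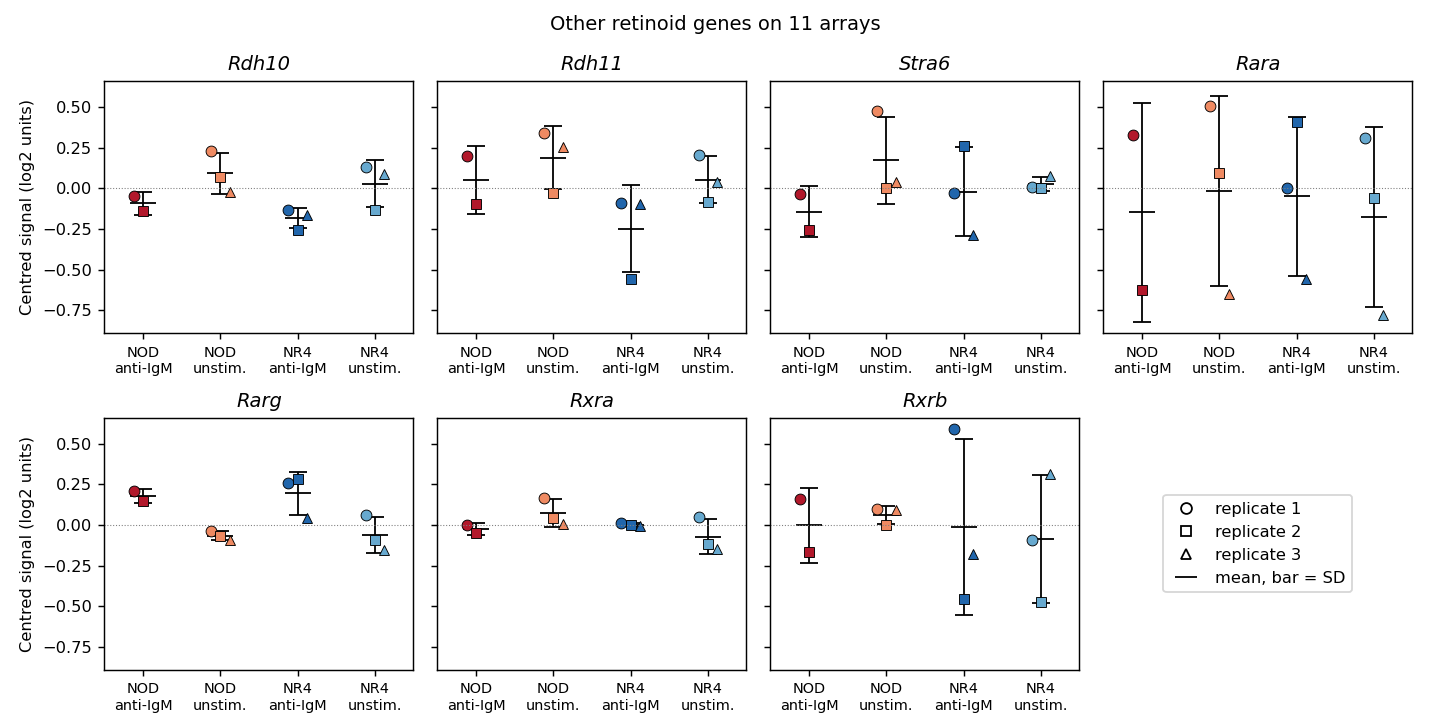
Centred signal (log2 units, vertical axis, the same scale in every panel) of the other 7 retinoid genes on the 11 arrays, by group, with the replicate number as the symbol and the mean with SD as lines. All values lie between -0.78 and 0.59, and Rara is lowest in replicate 3 of each group that has one.

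Of the nuclear receptors, Rarg had the smallest p for the response. RARG is one of the 3 retinoic acid receptors. Its centred signal was 0.21 and 0.15 in NOD anti-IgM, against -0.04, -0.07 and -0.09 in NOD unstimulated arrays. It was 0.26, 0.28 and 0.04 in NR4 anti-IgM, against 0.06, -0.10 and -0.15 in NR4 unstimulated arrays. The cultures did not overlap in NOD and overlapped by 1 array in NR4. The averaged response was 0.25 (SE 0.073, 95% interval 0.09 to 0.41, limma adjusted p = 0.15, unadjusted p = 0.0061). It passed in 1 alternative fit, with assumed lots within strain as a random block (0.25, limma adjusted p = 0.046). There, same-numbered arrays of a strain were taken as 1 lot, which the labels do not state. In that fit 756 genes passed over all, against 283 without the block. The gene value is the mean of 2 probe sets that did not move alike. By 1419415_a_at the response was 0.34 (SE 0.13, limma unadjusted p = 0.026, adjusted p = 0.35). By 1419416_a_at it was 0.16 (SE 0.14, limma unadjusted p = 0.29, adjusted p = 0.86). The second was at 0.81 in NR4 anti-IgM replicate 2 and at -0.13 to 0.14 elsewhere. On that array the first was at -0.24. The unadjusted p of 0.0061 belongs to the mean and to neither probe set alone. NOD minus NR4 was -0.010 (SE 0.073), with opposite signs by probe set. It was 0.18 (SE 0.13) by 1419415_a_at and -0.20 (SE 0.14) by 1419416_a_at. By 1419416_a_at the NOD unstimulated arrays lay below the NR4 unstimulated ones (difference -0.11, SE 0.19). How many of all probe sets were separated in this way was not counted.

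Rara, the gene of the most widely expressed retinoic acid receptor, varied more between replicates than between groups. It was at 0.33 and -0.62 in NOD anti-IgM and at 0.50, 0.09 and -0.65 in NOD unstimulated arrays. It was at 0.00, 0.41 and -0.56 in NR4 anti-IgM and at 0.31, -0.06 and -0.78 in NR4 unstimulated arrays. The 3 arrays numbered 3 lay between -0.78 and -0.56, and the 4 numbered 1 between 0.00 and 0.50, while NOD anti-IgM replicate 2 was also low. The strain difference was 0.032 (SE 0.29) and the averaged response -0.00057 (SE 0.29, 95% interval -0.65 to 0.65, limma adjusted p = 1.00). Changes below about 0.6 log2 units lay inside this unadjusted interval and were not detectable for Rara in this fit. The adjusted test requires larger changes still. With the replicate number as a block, the response by its probe set 1450180_a_at was -0.15 (SE 0.16, 95% interval -0.51 to 0.22).

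A test for the replicate number was added after these values were seen. In a fit with that number as a factor, Rara (F = 13.9, limma adjusted p = 0.038) and Rdh11 (F = 11.9, limma adjusted p = 0.048) passed, or 2 of the 8 genes, where 6.84% of all genes did. Rara deviated from its group means by 0.38 on average in arrays numbered 1 and by -0.58 in arrays numbered 3. Rdh11 deviated by 0.15 in arrays numbered 1 and by -0.20 in arrays numbered 2. With each array left out in turn, Rara passed in 4 of 11 fits and Rdh11 in none, with adjusted p of 0.015 to 0.12 and of 0.057 to 0.13. The labels do not say whether a number marks a day or a lot shared by the strains.

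Neither retinoid X receptor gene passed a test of the response. These receptors are the shared partners of the retinoic acid, vitamin D and thyroid hormone receptors. Rxra lay between -0.05 and 0.00 in NOD anti-IgM, between 0.00 and 0.17 in NOD unstimulated, between -0.01 and 0.01 in NR4 anti-IgM and between -0.15 and 0.05 in NR4 unstimulated arrays. Its averaged response was -0.011 (SE 0.066, 95% interval -0.16 to 0.14, limma adjusted p = 0.99) and NOD minus NR4 was 0.058 (SE 0.066). That value is a median of 3 probe sets, and 1 of them, 1425762_a_at, reached 0.78 in NR4 anti-IgM replicate 2, the array that was also high for Rarg by 1 probe set. On the other 10 arrays it lay between -0.17 and 0.17. The other Rxra probe sets were at -0.21 and 0.00 on that array. In anti-IgM cultures these other probe sets separated the strains in opposite directions. NOD arrays lay above NR4 arrays by 1430497_at (difference 0.23, SE 0.15) and below them by 1454773_at (difference -0.47, SE 0.30). These separations are descriptions only, since the share of all probe sets so separated was not counted.

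Rxrb was more variable. It was at 0.16 and -0.17 in NOD anti-IgM and at 0.10, 0.00 and 0.09 in NOD unstimulated arrays. It was at 0.59, -0.45 and -0.18 in NR4 anti-IgM and at -0.09, -0.47 and 0.31 in NR4 unstimulated arrays. The highest value belonged to NR4 anti-IgM replicate 1, the array with the large 3' to 5' difference. NOD minus NR4 was 0.080 (SE 0.20) and the averaged response 0.0020 (SE 0.20, 95% interval -0.43 to 0.44, limma adjusted p = 1.00). Without that array the strain difference was 0.23 and the averaged response -0.15.

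Over the 8 genes, none passed the test of the averaged response (limma, 0 genes), where 1.56% of all genes did. At an unadjusted p under 0.05 there were 3 (Dhrs3, Rdh10 and Rarg), and 11.4% of all genes reached it. The median response of the 8 genes was -0.0060, against 0.0034 for all genes. None passed in NOD or in NR4 alone, where 0.115% and 0.412% of all genes did and 1 of the 8 reached an unadjusted p under 0.05 in each, namely Rarg (5.15% and 9.63% of all genes). The arrays of the cultures did not overlap for 5 of 8 genes in NOD and for 2 of 8 in NR4, where 20.2% and 12.6% of all genes were separated. They did not overlap in either strain, in the same direction, for 1 (Rdh10), where 5.64% of all genes did. No gene of the 8, or of all 18193, passed the test for a different response in the strains (0.0% called), and none of the 8 reached an unadjusted p under 0.05, where 1.4% of all genes did. Apart from Dhrs3, the strain differences of the genes lay between -0.010 and 0.22. The counts above come from the fit without a term for the lots that the cultures share. With lots within strain as a random block, 1 of the 8 genes (Rarg) passed in the averaged response, among 756 genes over all.

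**Figure D4:**
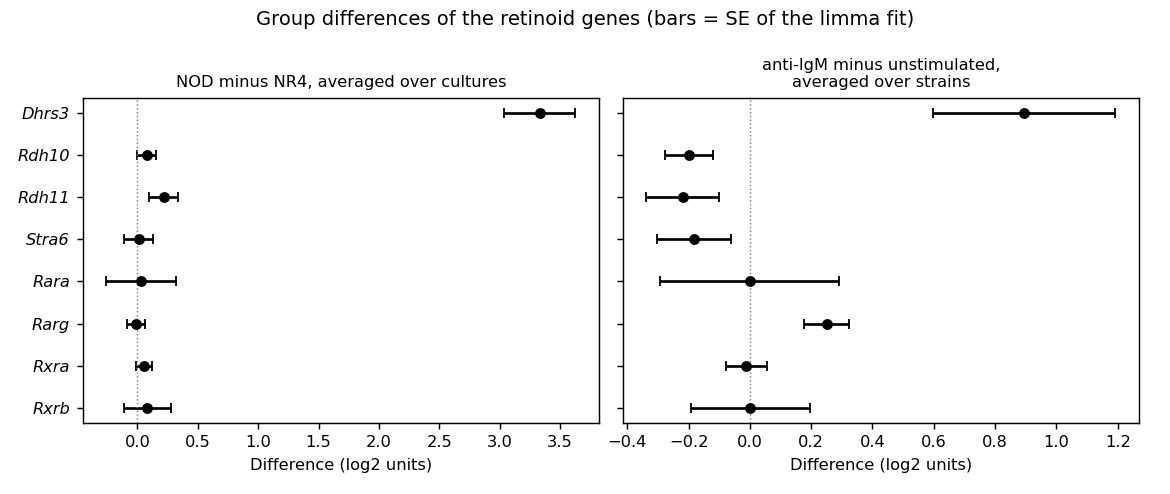
Differences (log2 units, points, with SE as bars) of the 8 retinoid genes, between strains on the left and between cultures on the right, on separate scales. Dhrs3 stands at 3.33 between the strains, while the other 7 lie between -0.010 and 0.22; between cultures Dhrs3 is at 0.90 and Rarg at 0.25.

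Other genes of the pathway were read from 6 lists of 78 genes, of which 68 were measured. Between the strains none passed (limma, 0 of 68), and 3 reached an unadjusted p under 0.05, where 4.39% of all genes did. The median strain difference was 0.0094, against 0.0013 for all genes. No gene that makes or breaks down retinoic acid passed between the strains. Of the synthetic enzymes, Aldh1a1 was at 0.19 (SE 0.11), Aldh1a2 at 0.14 (SE 0.093) and Aldh1a3 at -0.079 (SE 0.098). The clearing enzymes Cyp26a1 and Cyp26b1, both induced by retinoic acid in many cell types, were at -0.013 (SE 0.12) and 0.034 (SE 0.18). Rarb, the third retinoic acid receptor and itself a target of retinoic acid, was at 0.29 (SE 0.23), and Lrat, the enzyme that stores retinol as esters, at -0.095 (SE 0.065). The adjusted p was 1.00 for each of these 7 (limma). The values of Cyp26b1 and Rarb include an outlying array, NR4 anti-IgM replicate 2. Cyp26b1 was at 0.77 on it, against -0.30 and -0.22 in replicates 1 and 3 of that group. Rarb was at -1.34 on it, against 0.00 and -0.01.

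Between the cultures, 4 of the 68 passed (5.88%), 3 higher and 1 lower after anti-IgM, where 0.715% of all genes were called higher and 0.841% lower. Fabp5, a fatty acid binding protein that can deliver retinoic acid, was at 0.78 and 0.71 in NOD anti-IgM and between -0.48 and -0.05 in NOD unstimulated arrays. It lay between 0.24 and 0.46 in NR4 anti-IgM and between -0.76 and -0.31 in NR4 unstimulated arrays. It rose by 0.93 (SE 0.11, limma adjusted p = 0.0031), and the cultures did not overlap in either strain. Stra6l, a relative of Stra6 named after its value was seen, had a larger difference with a wider error and did not pass (1.14, SE 0.33, limma adjusted p = 0.15). Vdr, the vitamin D receptor and a partner of the retinoid X receptors, rose by 0.64 (SE 0.12, limma adjusted p = 0.028). Its arrays lay between 0.18 and 0.59 in anti-IgM cultures of either strain, and between -0.63 and 0.00 in unstimulated ones. The call of Vdr was lost without any of 8 of the 11 arrays (adjusted p up to 0.12).

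Of 14 measured genes known to be induced by retinoic acid, 1 rose and 1 fell. Plaur, the urokinase receptor gene, rose by 0.65 (SE 0.098, limma adjusted p = 0.012). Its arrays lay between 0.15 and 0.64 in anti-IgM cultures, and between -0.45 and 0.00 in unstimulated ones. Itga4, the integrin chain of gut homing, fell by 0.50 (SE 0.074, limma adjusted p = 0.011). Its arrays lay between -0.56 and -0.18 in anti-IgM cultures, and between 0.00 and 0.26 in unstimulated ones. Plaur was not called without either NOD anti-IgM array (adjusted p = 0.055 without replicate 1 and 0.060 without replicate 2), nor Itga4 without NOD anti-IgM replicate 2 (adjusted p = 0.069). None of 16 measured dehydrogenases and reductases passed, the smallest p being those of Rdh14 at -0.30 (SE 0.095, limma adjusted p = 0.21) and Rdh12 at -0.48 (SE 0.17, limma adjusted p = 0.28). None of 7 genes of retinoic acid synthesis and clearance and none of 11 coregulators passed. These genes also answer to signals other than retinoic acid, and the source of their change was not tested. Without NOD anti-IgM replicate 1, 2 of the 68 passed, and without NOD anti-IgM replicate 2, 1 did.

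**Figure D5:**
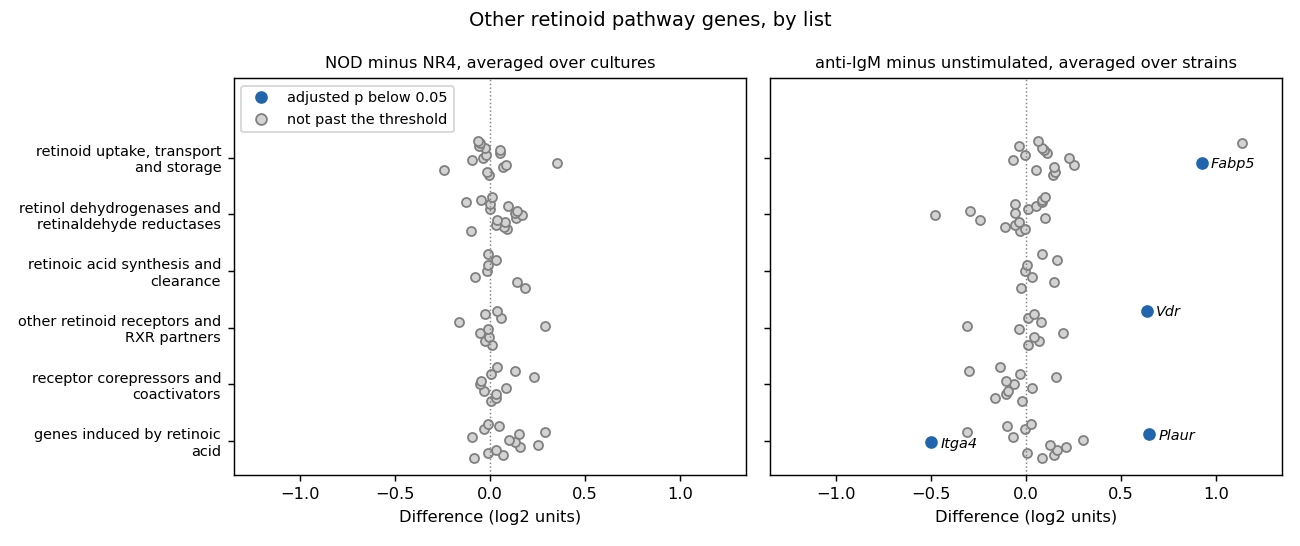
Differences (log2 units) of the other retinoid pathway genes by list, between strains on the left and between cultures on the right, 1 point per gene, with genes past an adjusted p of 0.05 in blue. No point is blue on the left, and on the right Fabp5, Vdr and Plaur are above 0 and Itga4 below. The grey point right of Fabp5 is Stra6l at 1.14, which did not pass.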

How the data were processed

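Values of 45101 probe sets on 11 arrays were deposited, made by the authors with RMA per the submitters' processing notes. Software version and log base are not given there, and the deposited values were taken as log2. In the deposited table all 45101 probe sets have a median of 0 over the arrays, so they were also centred. This removes levels and detection, and no filter on dim genes was possible.

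Gene symbols come from the platform annotation. Probe sets naming 1 symbol were condensed to their median per gene (18193 genes). One model with 4 group means was fitted to all genes with limma 3.58.1 in R 4.3.3 (7 residual degrees of freedom), with Benjamini-Hochberg adjustment over all genes within each of 7 comparisons, two-sided, at a threshold of 0.05. Called means past that threshold. Differences are NOD minus NR4, and anti-IgM minus unstimulated. Replicates are separate lots, and cultures share lots. The model has no term for the lot and treats the 11 arrays as independent. For a random block of lots within strain, same-numbered arrays of a strain were taken as 1 lot, which the labels do not state. The correlation within these assumed lots was 0.34.

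The retinoid genes and lists were chosen with earlier results of these data known. Named genes are the 8 genes, called genes of the lists and neighbours (or those with the smallest p), the nearest neighbours, some pathway genes chosen for their role, and the genes most and least correlated with Dhrs3. The fit was tested on simulated data. Arrays have no read depth, and their number limits precision.

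Same-numbered arrays were checked for pairing. Deviations from group means correlated by 0.59, 0.21 and 0.51 between unstimulated NOD and NR4, and by 0.33, 0.22 and 0.47 between NR4 cultures, all above the limit of 0.1. With 2 stimulated NOD arrays the values were 0.63 and 0.12 for NOD cultures, and 0.37 and -0.12 for stimulated cells of both strains, where pairing is not established. Alternatives were the lowest-numbered probe set, quantile normalization, the replicate number as a block, lots as a random block, array weights and leaving out each array. Quantile normalization was run on RMA values already centred per probe set. It therefore matched the arrays in their deviations and not in their intensities.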

Additional observations from a re-analysis of the deposited data

How the results depend on the processing

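The averaged strain difference of Dhrs3 moved by less than its within-group SD in all alternatives, with 3.05 to 3.54 on leaving out single arrays, 3.01 after quantile normalization and 3.21 with the replicate block. Its difference in anti-IgM cultures moved further, to 2.44 after quantile normalization, and with the same normalization its response was 0.17 in NOD and 1.32 in NR4. The count of retinoid genes called in the averaged response was 0 in all alternatives but the random block of lots, where it was 1 (Rarg). With the replicate block no retinoid gene changed its call in the tests of the response, and the averaged response of Dhrs3 was 0.78. The strain differences of these genes had no test. The count of other pathway genes called in the response was 1 to 4 on leaving out single arrays. Signs changed for values near 0. The averaged response of Rxra was 0.12 with the lowest-numbered probe set and 0.012 with array weights. The interaction of Dhrs3 was -1.15 after quantile normalization and -0.11 with the replicate block. On leaving out single arrays it was -0.31 to 0.67, and the averaged responses were -0.24 to 0.24 for Rara, -0.030 to 0.019 for Rxra and -0.15 to 0.11 for Rxrb. The cause of these changes was not tested.

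Counts over all genes moved further. For the strain difference 22 genes became 37 with the replicate block, 12 with lots as a random block and 35 with array weights, and 11 in unstimulated cells became 127 with array weights. For the averaged response 283 became 558, 756 and 506. In NOD 21 became 9 after quantile normalization and 52, 91 and 94 in those fits, and in NR4 75 became 16 after quantile normalization and 229 and 353 with the blocks. On leaving out single arrays these counts were 12 to 21 for the strain difference, 76 to 273 for the averaged response, 0 to 25 in NOD and 21 to 50 in NR4, and the 9 genes of the strain difference in stimulated cells were 4 to 10. The genes called for the replicate number, 1244, were 108 to 2786 on leaving out single arrays. Signal over background is not known, so how far dim probe sets limit these results cannot be read from the table.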

Other observations

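Within groups, the deviations of Dhrs3 from its group means were most correlated with those of Anxa4 (r = 0.98), Zfp446 (r = 0.97) and Iqgap1 (r = 0.97) over the 11 arrays. Of the other retinoid genes, Rarg (r = 0.74), Rxra (r = 0.66) and Rara (r = 0.60) deviated most like Dhrs3, and Rxrb (r = -0.27) least. NR4 unstimulated replicate 3 deviated from its group mean by -1.11 log2 units for Dhrs3, the farthest of the 11 arrays. These correlations are descriptions over arrays that include it, and their values without it were not computed.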
